A study of Mus musculus with 81 samples.

Results

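The MMERVK9 proviruses and their RLTR9 long terminal repeats (LTRs) are mouse endogenous retroviruses of the ERVK class. Their members were taken by name, as every locus in the endogenous retrovirus tables whose species name begins with MMERVK9 or RLTR9, which gave 9158 of 970384 loci and 15 of 680 species. Internal regions, which once encoded the viral proteins, made up 3357 of these loci, with 1800 of MMERVK9C_I-int (MMERVK9C below) and 1557 of MMERVK9E_I-int (MMERVK9E below). The other 5801 loci were RLTR9 LTRs of 13 species, from 1302 copies of RLTR9E to 35 of RLTR9A4. The internal regions had a median length of 630 bases and the LTRs of 363 bases. Outside annotated genes lay 7210 members, or 78.73%, against 64.54% of all loci.

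All mice were of the OG2 strain, whose EGFP transgene is expressed from regulatory sequence of Pou5f1, so that germline cells fluoresce. F0 dams drank water with tributyltin (TBT, an organotin compound) at 50 nM or with the vehicle DMSO at 0.1%, and testes were taken from E18.5 fetuses among their F1 and F3 descendants. Cell sorting gave 2 populations of EGFP-positive germline cells that differed in side scatter, P4 and P5, and 1 of EGFP-negative somatic cells, P6. RNA was sequenced in 62 libraries. In F1, P4 cells had 5 DMSO and 7 TBT libraries, P5 cells 4 and 7, and P6 cells 5 and 7. In F3, each population had 4 DMSO and 5 TBT libraries. Methylated DNA of P6 cells was captured with a methyl-binding domain protein (MBD) in a further 19 libraries, 3 DMSO and 4 TBT in F1 and 5 DMSO and 7 TBT in F3. The labels do not say whether libraries of a group came from separate animals or litters, so the p-values measure the spread between these libraries only.

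A provirus is an integrated retroviral genome with an internal region between a pair of LTRs, and the LTR holds the promoter, the enhancer and the polyadenylation signal. Most old insertions have lost the internal region by recombination between their LTRs and survive as solitary LTRs. In fetal testes, male germline cells pass through a wave of DNA demethylation and remethylation in which retroviral copies are silenced by DNA methylation, histone marks and piRNAs.

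Levels are in CPM as the authors scaled them with TMM, so that library totals differ, and the value of 1 read lay between 0.129 and 0.957 CPM. The 62 libraries held between 246520 and 8161548 reads over all loci, and the 4 shallowest, all F3 germline, had 246520 to 1606422. All members together took between 0.382 and 0.681% of all signal as group means. Germline marker genes, read through LTR loci inside 11 of 16 listed genes, summed to group means of 9282 to 20080 CPM in P4 and P5 cells and 21.6 to 140 CPM in P6 cells. Tex101, a germ cell gene, was at 0 in P6 cells and at or near 0 in germline cells too, with group means of 0 to 0.967 CPM. Sertoli cell markers, read in 4 of 8 genes, summed to 791 to 875 CPM in P6 cells and 7.98 to 56.1 CPM in germline cells, and peritubular and interstitial markers, in 4 of 6 genes, to 455 to 647 and 15.9 to 29.7 CPM. Endothelial and blood markers (5 of 6 genes) reached 128 to 142 CPM in P6 cells and 20.02 to 51.5 CPM in germline cells, while Leydig cell markers (3 of 6 genes) overlapped between the sorts, at 33.7 to 143 and 11.1 to 89.1 CPM. In bulk samples like these, fewer cells of a type and less RNA per cell cannot be told apart.

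The sequences in which these loci differ come first, since the name of an internal region does not fix the LTR beside it. The following joins of an LTR and MMERVK9C are shown because the 5 internal regions lay outside genes and were higher in P5 than in P4 cells of the F1 TBT group. Each run is from the GRCm38 genome, 5′ to 3′ on the strand given, from LTR into internal region. Capitals mark the 8 bases from the first TGG after the LTR, the place where retroviruses keep a primer binding site for a tRNA.

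RLTR9D into MMERVK9C_I-int, chr4:89711705-89711775, + strand: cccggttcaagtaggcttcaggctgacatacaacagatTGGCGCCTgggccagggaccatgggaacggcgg
RLTR9F into MMERVK9C_I-int, chr9:7761933-7762003, - strand: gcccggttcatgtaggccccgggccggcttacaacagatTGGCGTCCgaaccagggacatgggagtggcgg
ERVB7_3-LTR_MM into MMERVK9C_I-int, chr17:18528190-18528260, + strand: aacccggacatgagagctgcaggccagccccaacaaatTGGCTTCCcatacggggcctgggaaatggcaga
ERVB7_2-LTR_MM into MMERVK9C_I-int, chr11:28167369-28167439, + strand: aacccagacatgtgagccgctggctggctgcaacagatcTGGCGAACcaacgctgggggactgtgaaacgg
ERVB7_2B-LTR_MM into MMERVK9C_I-int, chr6:85883431-85883501, - strand: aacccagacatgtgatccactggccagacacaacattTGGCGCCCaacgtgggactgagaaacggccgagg

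RLTR9D and RLTR9F are RLTR9 LTRs by name, whereas ERVB7 LTRs belong to a differently named family. All 5 runs held the letters caaca at the join and differed further upstream, and the capitals differed between all 5 copies.

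LTRs lay within 100 bases of a MMERVK9 internal region at 1284 of 5801 RLTR9 loci, or 22.13%, and the rest stood apart from one. RLTR9C was tied to MMERVK9C, with 325 of its 473 copies (68.71%) next to an internal region, 322 of them MMERVK9C. RLTR9E split evenly, with 158 copies beside MMERVK9C and 181 beside MMERVK9E, while RLTR9A had 8 and 71, RLTR9A3 had 3 and 73, and none of the 35 RLTR9A4 copies touched an internal region. Of the 1479 MMERVK9C loci outside genes, 306 (20.69%) lay beside RLTR9C, 240 beside another RLTR9 LTR, 205 beside an ERVB7 LTR, 280 beside some other LTR and 448 beside none.

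The last 250 bases of 3 LTRs are shown because they were among the most abundant RLTR9 copies outside genes, the first in F1 P5 cells, the second in F1 P4 and P5 cells and the third in P6 cells. Capitals mark GATCAG, 6 letters that these copies share.

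RLTR9A3B, chr11:21209093-21209342, + strand: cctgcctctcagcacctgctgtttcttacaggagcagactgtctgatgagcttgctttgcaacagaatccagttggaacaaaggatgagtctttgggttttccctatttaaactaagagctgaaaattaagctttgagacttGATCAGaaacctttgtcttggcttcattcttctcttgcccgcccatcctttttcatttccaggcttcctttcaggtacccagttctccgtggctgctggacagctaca
RLTR9E, chr13:65960110-65960359, + strand: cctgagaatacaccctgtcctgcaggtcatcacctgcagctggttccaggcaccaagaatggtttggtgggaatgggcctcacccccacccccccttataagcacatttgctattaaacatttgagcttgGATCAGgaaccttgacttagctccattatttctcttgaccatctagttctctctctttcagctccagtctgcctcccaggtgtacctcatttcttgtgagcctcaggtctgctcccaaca
RLTR9D, chr7:48161187-48161436, - strand: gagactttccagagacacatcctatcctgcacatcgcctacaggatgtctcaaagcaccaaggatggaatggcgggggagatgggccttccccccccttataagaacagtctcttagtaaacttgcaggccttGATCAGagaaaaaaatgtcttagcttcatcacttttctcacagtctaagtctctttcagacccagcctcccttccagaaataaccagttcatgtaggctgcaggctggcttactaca

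The letters TTGATCAG, chosen after these sequences were read, were found on either strand in 47.5% of the 4370 RLTR9 LTRs of 300 to 500 bases and in 2.13% of the 292505 other LTR loci of that length. Their share ran from 4.11% of RLTR9D2 to 77.8% of RLTR9A4 copies, and the RLTR9E copy above has a different letter before GATCAG. The TATA box letters TATAAA, which can place transcription start, were in 66.6% of RLTR9 LTRs and 29.2% of other LTRs. RLTR9C (93.1%), RLTR9D2 (90.4%) and RLTR9E (86%) had them most often among species with over 100 copies, against 21.2% of RLTR9A3A and 26.8% of RLTR9A copies. The polyadenylation letters AATAAA were rarer in RLTR9 LTRs than in others, at 18.7% and 50.7%, with RLTR9C at 87.8% and RLTR9A4, of which 18 copies had that length, at 72.2%, against 2.74 to 24.4% in the other species. TCAAGGTCA, the letters read by the pluripotency factor ESRRB, were in 17.4% of RLTR9D and 15.8% of RLTR9D2 copies, in 3.55% of RLTR9 LTRs as a whole and in 0.726% of other LTRs. The octamer ATGCAAAT of POU5F1 was in 10.6% of RLTR9A3A copies, in 1.01% of RLTR9 LTRs and in 1.92% of others. A match describes these letters only.

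Summed over all copies, MMERVK9C was the more abundant internal region in germline cells and MMERVK9E in somatic cells. In F1 DMSO libraries, MMERVK9C had 0.567 CPM per kb in P4, 0.607 in P5 and 0.253 in P6 cells, and MMERVK9E had 0.436, 0.451 and 0.477. Most of both sums lay inside genes, so this order describes copies in host genes above all. In these P4, P5 and P6 libraries, 8.06, 30.3 and 4.93% of MMERVK9C signal fell outside genes. For MMERVK9E the shares were 6.20, 23.2 and 3.22%. The internal regions together summed to 1723 ± 118 CPM (SD, n = 5) in P4, 1820 ± 77.9 (n = 4) in P5 and 1173 ± 81.8 (n = 5) in P6 cells. Germline and somatic cells were normalized in separate tables, so their values are given side by side without a test.

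The LTRs split into species with high and low somatic values. RLTR9A had 0.778 CPM per kb in P4, 1.11 in P5 and 3.03 in P6 cells of the F1 DMSO group, and RLTR9B had 1.49, 1.94 and 5.14. RLTR9C went the other way, at 0.996, 0.877 and 0.374 CPM per kb, and RLTR9E at 1.21, 1.32 and 0.960. In F3 DMSO libraries the same order held, with species sums of RLTR9A of 242, 320 and 441 CPM and of RLTR9C of 292, 196 and 60.5 CPM in P4, P5 and P6 cells.

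Single loci inside host genes carried much of these sums. An RLTR9A copy in an intron of Inha, the inhibin alpha subunit made by Sertoli cells, at chr1:75508706-75509069, read 454, 455, 564, 614 and 444 CPM in the F1 P6 DMSO libraries. Its mean was 506 CPM there, 450 in F1 P6 TBT and 336 and 371 in F3 P6 DMSO and TBT libraries, against 1.51 to 46.1 in germline groups. An RLTR9B copy in an intron of Aard at chr15:52043501-52043796 had 143 and 126 CPM in F1 P6 DMSO and TBT and 1.11 to 12.4 CPM in germline groups. On the germline side, an RLTR9E copy in an exon of 1700054O05Rik at chr10:35478712-35479140 had 77.0 ± 11.7 CPM (SD, n = 5) in F1 P4 DMSO, 72.2 in F1 P5 DMSO and no read in 5 F1 P6 DMSO libraries, where 3 reads over the group would be 0.167 CPM. An RLTR9A2 copy in an intron of Stk31, a germ cell kinase gene, had 80.4 and 57.1 CPM in F1 P4 and P5 DMSO and 0.0520 CPM in P6 DMSO. Reads inside a gene can come from its own transcript, and the strand of the reads was not given in the sources used here, so the 2 cannot be told apart.

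Some neighbouring members inside 1 gene had equal numbers of reads. Among 123 pairs of neighbours with a mean of at least 5 reads at both loci and within 20000 bases in the same gene, 41 had the same number of reads in at least 90% of libraries, and the median pair matched in 83.6%. Outside genes, 0 of 11 such pairs did, with a median of 4.88%. The intronic MMERVK9E pieces of Acaa2, a mitochondrial thiolase gene, at chr18:74794420-74794545 and chr18:74794544-74794661, overlap and had the same number of reads in 59 of the 60 libraries with reads there.

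Outside genes, the internal regions stood far higher in P5 than in P4 cells. The F1 DMSO libraries read 112, 115, 119, 130 and 154 CPM over the 2700 internal regions outside genes in P4 cells and 342, 525.9, 548 and 624 CPM in P5 cells, without overlap. In F1 TBT, 7 P4 libraries lay between 90.04 and 166 CPM (median 102) and 7 P5 libraries between 431 and 822 (median 581), again without overlap. The share of internal signal that fell outside genes was 7.38% in P4 and 27.9% in P5 cells of the DMSO group and 6.39 and 31.5% in the TBT group. Over all 970384 loci, the share outside genes was likewise higher in P5 cells, at 5.04 against 2.27% in DMSO and 5.998 against 2.09% in TBT.

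Marker genes of the sort moved with this comparison. In F1 DMSO the summed germline markers were 14530 to 19980 CPM in P4 and 10630 to 14140 CPM in P5 cells, and the endothelial and blood markers 10.6 to 28.4 and 38.2 to 52.4 CPM, both without overlap, while the Sertoli markers overlapped at 16.0 to 46.4 and 23.2 to 81.0 CPM. In F1 TBT the germline markers (16350 to 25610 and 10380 to 20050 CPM) and the endothelial and blood markers (16.2 to 56.2 and 38.25 to 75.1 CPM) overlapped. The part of other cells in the P5 over P4 difference was not tested.

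In F3 the libraries were more spread. The internal regions outside genes read 140 to 415 CPM in 4 P4 DMSO libraries and 714 to 2219 in 4 P5 DMSO libraries, and 110 to 463 in 5 P4 TBT and 693 to 1454 in 5 P5 TBT libraries, without overlap in either group. Some libraries stood apart within them. In P5 DMSO libraries 1 and 2, 59.7 and 61.3% of internal signal fell outside genes, against 37.5 and 33.0% in libraries 3 and 4, which alone read 962 and 714 CPM there. In that group the summed germline markers went down to 3210 CPM and the share outside genes over all loci went up to 27.9%. In P4 TBT libraries 5 and 9, 36.5 and 37.9% of internal signal fell outside genes, against 5.24 to 8.70% in the other 3, and in P5 TBT library 5 it was 81.3%, against 30.4 to 42.9% in the other 4. Without these 3 libraries, the internal regions outside genes read 110 to 212 CPM in P4 TBT and 703 to 1454 CPM in P5 TBT cells. The summed germline markers went down to 2204 CPM in P4 TBT and 500.3 CPM in P5 TBT libraries, and the share outside genes over all loci went up to 12.1 and 31.1%. The LTRs outside genes moved less. They had 314 ± 34.6 CPM (SD, n = 5) in P4 and 472 ± 54.4 (n = 4) in P5 cells of F1 DMSO, and in F3 their groups overlapped, at 452 to 1219 in P4 and 585 to 2321 CPM in P5 DMSO cells.

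**Figure D1:**
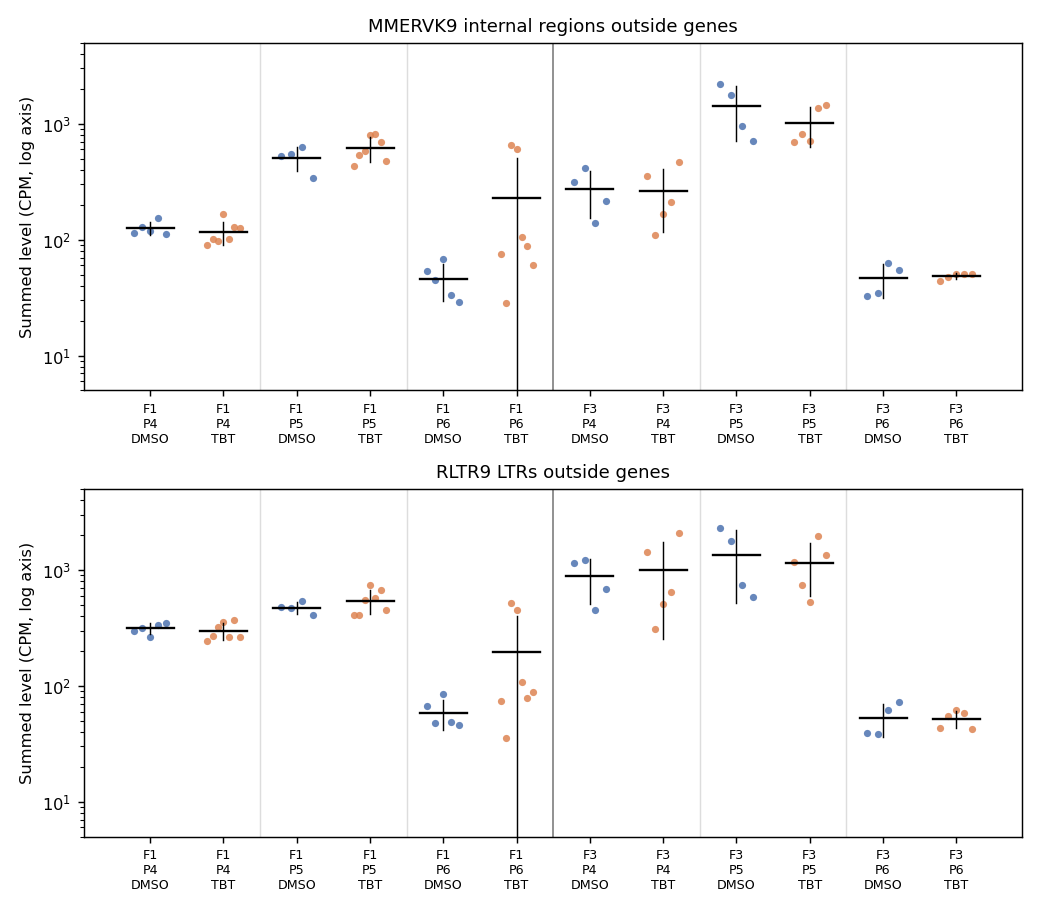
Summed CPM (log axis) of MMERVK9 internal regions and of RLTR9 LTRs outside genes in each RNA library, by generation, population and exposure, with points for libraries, lines for means and bars for 1 SD. The F1 internal values of P4 (112 to 154 CPM in DMSO) and P5 cells (342 to 624 CPM in DMSO) do not overlap, the TBT bar of F1 P6 cells runs below the axis, and germline and P6 values come from separately normalized tables.

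In somatic cells these loci were near silent in most libraries. The internal regions outside genes had 45.7 ± 15.9 CPM (SD, n = 5) in F1 P6 DMSO and 46.3 and 48.9 CPM in F3 P6 DMSO and TBT. F1 P6 TBT libraries 7 and 8 stood apart at 650 and 599 CPM. With them the 7 TBT libraries had 230 ± 271 CPM (SD), and without them the remaining 5 had 71.8 ± 29.2 CPM, between 28.5 and 105.1 CPM, which overlapped with DMSO at 28.9 to 68.4. The LTRs outside genes followed, at 520 and 455 CPM in libraries 7 and 8 and 76.7 ± 26.2 CPM in the other 5. Over all loci, the share of signal outside genes reached 6.95% in this group against a median of 1.59%, so the 2 libraries stood apart beyond the MMERVK9 and RLTR9 loci. Of the marker lists, the germline one was 25.7 to 34.1 CPM in F1 P6 DMSO and 32.2 to 49.95 CPM in TBT libraries and the Leydig one 40.2 to 139.7 and 50.2 to 327.7 CPM. Sertoli (758 to 909 and 637 to 896 CPM), peritubular and interstitial (411 to 516 and 429 to 492 CPM) and endothelial and blood markers (91.03 to 157 and 75.2 to 175 CPM) overlapped as well. Adgre1, a macrophage gene of the last list, had 8.30 to 19.5 and 19.96 to 58.4 CPM, without overlap. The other genes read from that list overlapped, with Ptprc at 9.25 to 14.0 and 7.88 to 18.1 CPM and Cdh5 at 63.8 to 128 and 17.4 to 133 CPM. The part of these markers in the difference was not tested.

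Species totals were compared between P5 and P4 cells with limma over all species, with an adjusted p of 0.05 as the threshold. With loci inside genes included, 4 of 15 species passed in F1 DMSO, where 45.6% of all species passed. RLTR9A rose by 0.50 (log2, SE 0.12, limma adjusted p = 0.0029), RLTR9B by 0.37 (SE 0.10, adjusted p = 0.0071) and RLTR9F by 0.26, and RLTR9C fell by 0.18 (adjusted p = 0.0375). In F1 TBT 5 species passed against 55.9% of all, with RLTR9A (0.45), RLTR9F (0.36), RLTR9B (0.22) and RLTR9E (0.21) higher and RLTR9C lower (-0.22). RLTR9C did not pass under the other scalings, at -0.05 in both exposures with the same total in each library. In F3, 0 of 15 passed in DMSO against 9.5% of all species, and 0 in TBT against 0% of all. Same-numbered F3 DMSO libraries were also taken as pairs, from the data and not from the labels. With the pair as a block 1 species passed, RLTR9D, at -0.60 (limma adjusted p = 0.0366).

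Totals over loci outside genes gave larger differences, led by both internal species. In F1 DMSO 9 of 14 species with enough signal rose, where 74.4% of all species passed. MMERVK9C rose by 2.01 (log2, SE 0.16, limma adjusted p = 4.0e-10) and MMERVK9E by 1.93 (SE 0.21), against 1.21 for RLTR9C, 1.14 for RLTR9B2 and 1.13 for RLTR9A3A. In F1 TBT 13 of 14 rose, against 93.6% of all that passed, with MMERVK9C at 2.47 and MMERVK9E at 2.33. In F3 only the internal regions passed among the members, MMERVK9C by 2.37 (SE 0.57) and MMERVK9E by 2.31 (SE 0.58) in DMSO, where 39.3% of all species passed, and by 2.23 and 1.699 in TBT, where 15.5% passed. RLTR9C, whose fall over all copies in F1 depended on the scaling, rose outside genes in F1 and passed in neither direction in F3. Its total over all copies was carried in large part by the Hadhb copy given below, which was lower in P5 cells of F1 DMSO.

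Locus by locus, 445 members had enough signal to test in F1 DMSO, and 68 passed, 48 higher and 20 lower in P5 cells. That share of 15.3% stands against 12.4% of all loci. In F1 TBT 170 of 492 passed, 127 higher and 43 lower, or 34.6% against 28.8% of all. With the same total in each library the counts were 51 higher and 6 lower in DMSO and 134 higher and 23 lower in TBT, and that scaling moved the median of all loci from -0.11 to 0.02 (log2) in DMSO and from -0.09 to 0.07 in TBT. Without P5 DMSO library 43-4, 43-5 or 44-1, the DMSO count was 37 of 430, 30 of 422 or 39 of 420, against 8.86, 7.23 and 8.1% of all.

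Of the members higher in P5 cells, internal regions outside genes made up 21 of 48 in F1 DMSO and 52 of 127 in F1 TBT. Copies at or near 0 in P4 cells reached the mean needed for a test through P5 cells alone, and so had to differ, which makes these counts and medians a description. In F1 DMSO 21 of 67 tested were higher in P5 and none lower, with a median log2 difference of 1.98. Over all internal regions outside genes the share higher was 25.3% and the median 1.46. In F1 TBT it was 52 of 71 with a median of 2.74, against 61% and 2.13 over all. The RLTR9 LTRs outside genes were at or below the background instead, with 3 of 52 higher in DMSO (11.8% of all LTRs outside genes) and a median of -0.03 against 0.48, and 15 of 70 higher with 4 lower in TBT (34.8% of all higher) and a median of -0.02 against 0.75. Inside genes, 3 internal regions were higher and 9 lower of 73 in F1 DMSO, and 21 LTRs higher and 11 lower of 253. These counts stand without the shares over all internal regions and LTRs inside genes, so they are no result about the members.

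The same comparison was made in the F1 TBT libraries, none of which F1 DMSO shares. Copies with few P4 reads entered the test through P5 cells in either exposure, so the filter largely fixed their direction in both, and the following counts describe them without supporting the rise. Of the 21 internal regions outside genes that passed in DMSO, 19 were tested in TBT, all 19 were higher and 16 passed. Among the 45 internal regions outside genes tested in both, 41 were higher in P5 cells in both groups. Of 45 LTRs outside genes, 10 were. In F3, 13 of 14 of those internal regions tested in DMSO and 17 of 17 in TBT were higher, but none passed, in comparisons where 0 of 798 and 0 of 633 members did. The background there was 0.145% of all loci in DMSO and 0% in TBT, and members at an unadjusted p under 0.05 numbered 81 and 59. With the DMSO pair as a block, 9 of 798 members passed, against 0.627% of all loci. Without P5 DMSO library 3 or 4, or P4 DMSO library 2, the counts were 17 of 807, 5 of 832 and 1 of 813, against 2.6, 0.351 and 0.115% of all. In TBT 12 of 659 passed without P5 library 5, which had 246520 reads, against 0.33% of all. By edgeR's quasi-likelihood test on recovered reads, 0 were called in DMSO, against 0% of all loci, and 56 of 633 in TBT, 47 of them higher, against 2.85% of all.

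**Figure D2:**
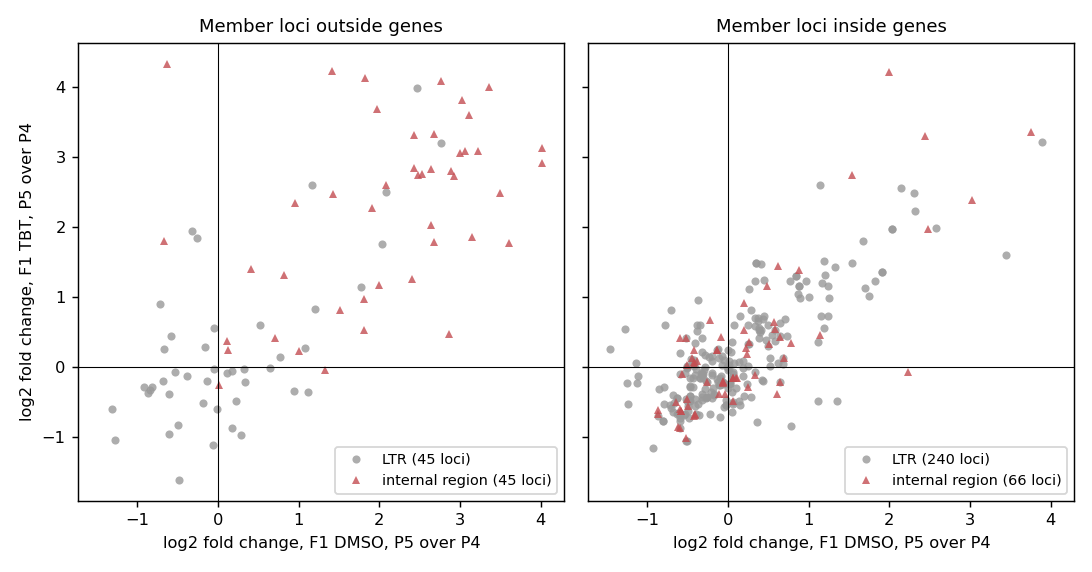
Log2 difference of P5 over P4 cells at each member tested in both exposures of F1, with DMSO on the x axis and TBT on the y axis, 1 point per locus. Outside genes, 41 of 45 internal regions lie above 0 on both axes and 10 of 45 LTRs do, while the 66 internal regions and 240 LTRs inside genes cluster around 0. Copies with few P4 reads are plotted only where P5 reads lifted them past the filter.

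Single copies show how few reads were present in P4 cells. MMERVK9C at chr17:18528227-18531694, beside an ERVB7 LTR, had no read in the 5 F1 P4 DMSO libraries and 0.957, 7.002, 7.23 and 2.86 CPM in the 4 P5 libraries, 93 reads in all. P5 was at least 30.7-fold higher, with P4 set at 3 reads over the group (0.147 CPM). The fit gave a limma adjusted p of 0.0027, which is no independent support, since a copy without P4 reads entered the test only through its P5 reads. The same holds for the other copies below with few or no P4 reads. In F1 TBT, 6 of 7 P4 libraries had none and 1 had 0.521 CPM, while P5 libraries lay between 0 and 13.4 CPM (median 1.27), with a log2 difference of 2.93 (SE 0.73, limma adjusted p = 0.0040). The P4 and P5 groups overlapped in TBT only through the P5 library at 0.

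MMERVK9C in an intron of Gm8189 at chr19:8492978-8495363 had no read in any of the 12 F1 P4 libraries. The P5 DMSO libraries had 3.83, 2.33, 7.23 and 1.01 CPM, at least 24.5-fold higher, and the TBT libraries were at least 27.5-fold higher (limma adjusted p = 0.0059 and 1.0e-04). MMERVK9C at chrX:54154276-54159036 had none in P4 DMSO and 2.39, 3.73, 4.82 and 0.673 CPM in P5, at least 19.7-fold higher. These 3 were the non-overlapping internal regions of largest difference in F1 DMSO. In F3 none of the 3 passed and their groups overlapped. The chromosome 17 copy had means of 0 and 2.65 CPM in P4 and P5 DMSO and 0.253 and 3.79 in TBT, the Gm8189 copy 0 and 0.115 and then 0.534 and 7.66, and the chromosome X copy 0 and 0.462 and then 1.77 and 7.93, with 8.83 CPM in 1 P4 TBT library.

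These bounds take each read as separate. Among members outside genes with reads, the number of reads was even at 58 to 80.2% of loci per library (median 67.7%), against 47.4 to 63.8% (median 49.7%) over all loci. Whether both mates of a pair were counted was not given in the sources used here, and its part in the bounds was not tested.

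MMERVK9C at chr4:89711742-89714357, beside RLTR9D, overlapped between the groups through 1 P4 library. The P4 DMSO libraries read 0, 0, 0, 0 and 2.13 CPM and the P5 libraries 1.01, 7.41, 8.402 and 15.7 CPM (log2 difference 4.02, SE 0.78, limma adjusted p = 0.0019). In F3 DMSO it had no read in P4 cells and 0.985, 0, 18.95 and 15.7 CPM in P5 cells, a mean at least 41.4-fold higher, but the groups overlapped (limma adjusted p = 0.32). In F3 TBT the P4 libraries read 0, 0.332, 0.469, 0 and 16.3 CPM and the P5 libraries 0, 8.84, 9.47, 1.60 and 12.01 CPM, with overlap (2.00, limma adjusted p = 1). MMERVK9C at chr6:85880712-85883466, beside an ERVB7 LTR, had 0, 0, 0.258, 0.801 and 0.924 CPM in F1 P4 DMSO and 1.01, 3.11, 4.31 and 15.9 CPM in P5 (3.05, SE 0.72, limma adjusted p = 0.0076), and 1.37 to 7.09 CPM in P5 TBT libraries. Its F3 P5 DMSO values of 74.9, 63.0, 11.6 and 10.2 CPM lay above all F3 P4 values (0 to 2.45), with a limma adjusted p of 0.052. MMERVK9C at chr18:10275245-10275828 was the most abundant internal region outside genes in F1 P5 cells, with means of 2.48 and 9.32 CPM in P4 and P5 DMSO, 1.00 and 10.1 in TBT, 6.08 and 52.6 in F3 DMSO, and no read in any P6 library.

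Of the 24 LTRs higher in P5 cells of F1 DMSO, 21 lay inside genes, as did 253 of the 305 LTRs tested. RLTR9A in an intron of Zfp719, a zinc finger gene, at chr7:43582364-43582642 had 1 read in F1 P4 DMSO and 2.57 to 8.27 CPM in the 4 P5 libraries (log2 difference 3.89, SE 0.74, limma adjusted p = 0.0016). RLTR9C in an intron of Gpld1 went from a mean of 0.151 to 3.79 CPM (3.44, limma adjusted p = 0.0015) and RLTR9A3 in an intron of Reln, the reelin gene, from 0.244 to 2.49 CPM (2.58, adjusted p = 0.022). In F1 TBT these were 3.22, 1.60 and 1.99 higher, and each passed. RLTR9E in an exon of Cyp4f16, a cytochrome P450 gene, at chr17:32551520-32551914 had 18.2 to 27.0 CPM in P4 and 42.1 to 65.3 CPM in P5 DMSO (1.16, SE 0.16, limma adjusted p = 4.4e-05), and 1.21 in TBT.

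Outside genes the highest LTR of F1 P5 cells, over DMSO and TBT libraries together, was RLTR9A3B at chr11:21208999-21209342, whose sequence is given above. It had 0, 0, 0.686, 1.23 and 6.19 CPM in P4 DMSO and 1.72, 5.74, 7.94 and 11.8 CPM in P5, with overlap (2.76, limma adjusted p = 0.017). In TBT its P4 libraries lay between 0 and 3.41 CPM and its P5 libraries between 4.52 and 13.1, without overlap (3.20, SE 0.42, limma adjusted p = 5.3e-06), and it had no read in P6 cells. RLTR9E at chr13:65959942-65960359, also shown above, had group means of 7.25 and 7.38 CPM in F1 P4 and P5 DMSO and 9.76 and 5.48 in TBT, where it was lower in P5 by -0.88 (limma adjusted p = 0.024). RLTR9B at chr2:30938853-30939238 had 5.70 to 7.26 CPM in F1 germline groups and 9.83 to 35.3 CPM in F3.

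The 20 members lower in P5 cells of F1 DMSO all lay inside genes, while 4 of the 43 in F1 TBT were LTRs outside genes. MMERVK9C in an exon of Akirin2, a nuclear regulator of transcription, at chr4:34550906-34551165 had 246 to 353 CPM in F1 P4 DMSO and 172 to 230 CPM in P5. It fell by 0.60 (log2, SE 0.11, limma adjusted p = 0.00095) and by 0.60 in TBT (SE 0.13, adjusted p = 0.0012), without overlap. The Acaa2 pieces of MMERVK9E fell by 0.59 in DMSO and 0.63 in TBT. Among LTRs, RLTR9A3 in Mrps9 fell by 0.62, RLTR9C in Hadhb, a mitochondrial fatty acid oxidation gene, by 0.49, and RLTR9D in Psmb3, a proteasome subunit gene, by 0.48 in DMSO. Hadhb RLTR9C read 88.9 to 101 CPM in P4 and 60.8 to 70.6 CPM in P5 DMSO, and its mean was 41.6 CPM in P6 DMSO. The RLTR9C total over all copies includes this copy, and the total without it was not tested.

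**Figure D3:**
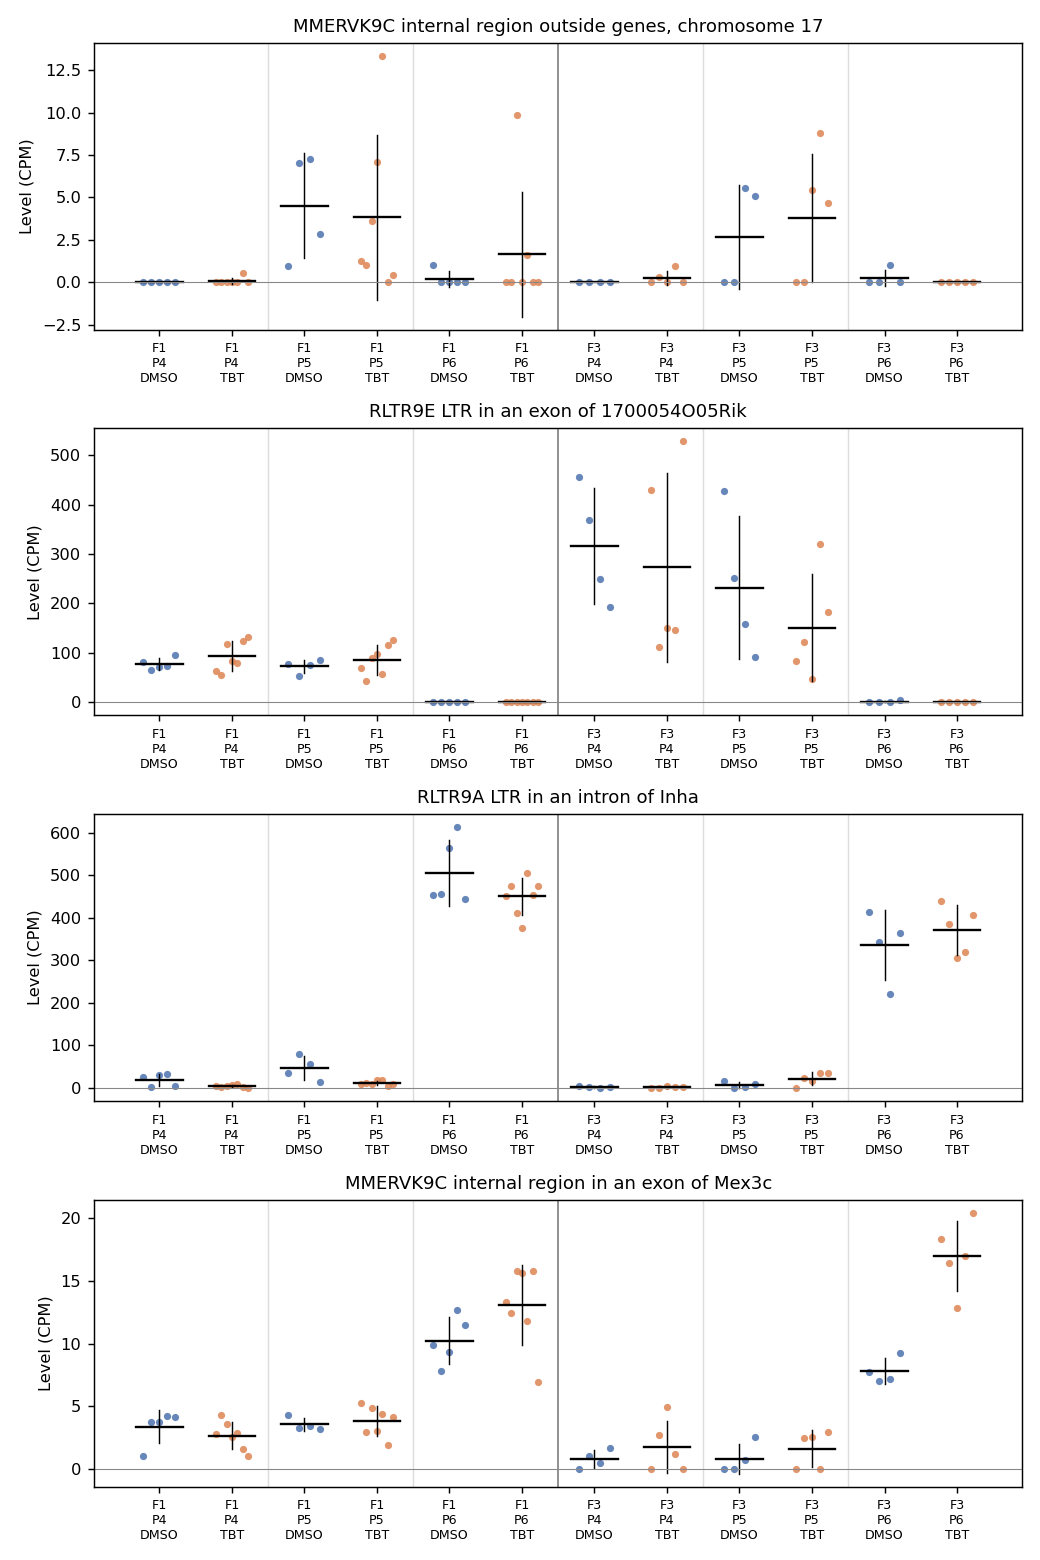
CPM in each RNA library at 4 loci, MMERVK9C on chromosome 17 outside genes, RLTR9E in 1700054O05Rik, RLTR9A in Inha and MMERVK9C in Mex3c, by generation, population and exposure, with 1 point per library. The chromosome 17 copy reaches 13.4 CPM in F1 P5 and is at 0 in all F1 P4 DMSO libraries, RLTR9E is germline-high, RLTR9A is P6-high, and the Mex3c copy separates TBT from DMSO in F3 P6 cells (12.9 to 20.5 against 6.98 to 9.26 CPM).

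The most abundant members outside genes in somatic cells included both internal regions and LTRs. A 92-base piece of MMERVK9C at chr18:73572912-73573003 had means of 10.2 and 14.2 CPM in F1 P6 DMSO and TBT and 10.7 and 18.4 in F3, and MMERVK9E at chr14:120773895-120774492 had 2.19 and 1.82 and then 2.51 and 3.00 CPM. RLTR9D at chr7:48161187-48161592, the third LTR shown above, had 3.47 to 10.1 CPM in 5 F1 P6 DMSO and 5.12 to 23.9 CPM in 7 TBT libraries and means of 10.03 and 9.76 CPM in F3, with no read in F1 P4 DMSO. After a gap of 5795 bases, RLTR9A3B at chr7:48167388-48167725 had group means of 6.14 to 8.57 CPM in P6 cells, and MMERVK9E at chr7:48165760-48166835 between them had 0.616 to 3.77 CPM. RLTR9A3 at chr3:9029254-9029563 had 5.12 to 8.56 CPM in P6 groups and under 1 CPM in germline groups.

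The MMERVK9C copies outside genes were further sorted by the LTR beside them, a sorting made after their values were seen and therefore given without a test. Copies beside RLTR9C had 0.0117 CPM per kb in F1 P4 DMSO and 0.0505 in P5. Copies beside other RLTR9 LTRs had 0.106 and 0.420, those beside ERVB7 LTRs 0.0837 and 0.403, those beside other LTRs 0.0522 and 0.213, and those beside none 0.0436 and 0.146. Of the 306 copies beside RLTR9C, 1 had enough signal to test in F1 DMSO and 5 in F1 TBT, where 4 were higher, against 17 copies beside ERVB7 LTRs in each, of which 8 and 13 were higher. Beside other RLTR9 LTRs 5 of 17 and 10 of 15 tested copies were higher, beside other LTRs 2 of 6 and 6 of 8, and beside none 1 of 6 and 4 of 5. The shares over all internal regions outside genes are given above, and these counts describe the copies only. The RLTR9C group is also the one of near-identical copies. A median of 99.8% of the 75-base words of a copy beside RLTR9C occurred elsewhere in MMERVK9, against 1.82% beside other RLTR9 LTRs and 4.54% beside ERVB7 LTRs. How reads that match many places were treated was not given in the sources used here, and its part in the low values beside RLTR9C was not tested.

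**Figure D4:**
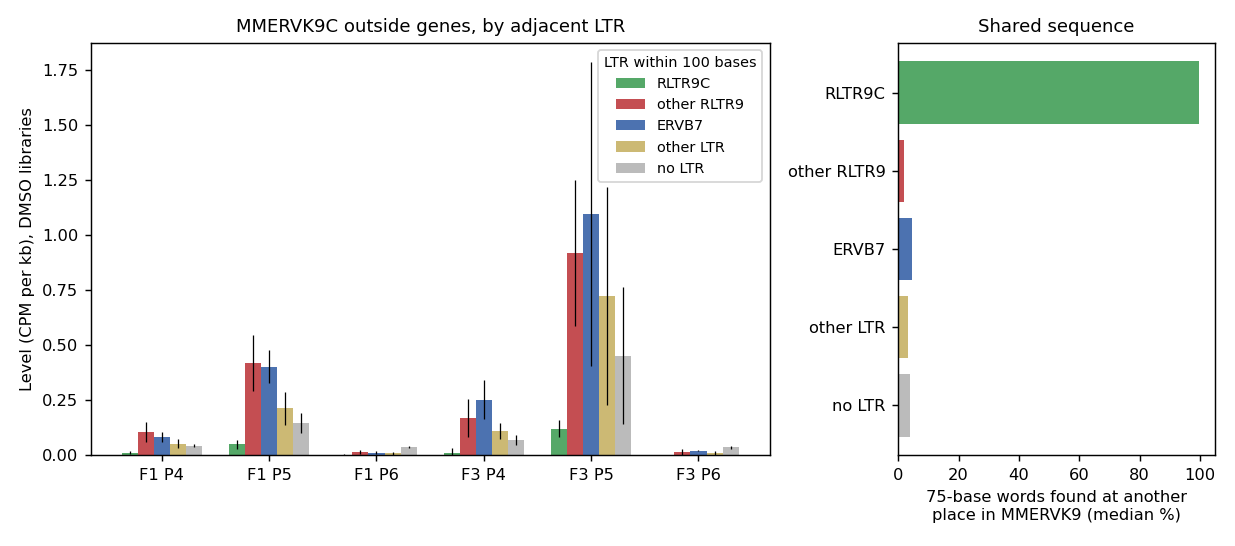
Left, CPM per kb of MMERVK9C outside genes by the adjacent LTR in DMSO libraries, with bars from 0 for means over libraries and lines for 1 SD. Right, the median percent of 75-base words of a copy that occur elsewhere in MMERVK9, 99.8% for copies beside RLTR9C and 1.82% beside other RLTR9 LTRs, in which the group with the lowest CPM per kb is the one with most shared words.

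TBT was compared with DMSO within each population and generation, to ask whether exposure of the F0 dams left a mark in F1 or F3 cells. In F1 P4 cells 0 of 337 members passed against 0% of all loci, with 26 at an unadjusted p under 0.05, and in F1 P6 cells 0 of 295 against 0.00341%, with 38. In F3 P4 cells 0 of 570 passed against 0%, with 14, and in F3 P5 cells 0 of 803 against 0%, with 27. By edgeR's quasi-likelihood test on recovered reads the count was 0 in each of these 4, against 0.00109, 0.00341, 0 and 0% of all loci, and by its likelihood ratio test 1, 3, 0 and 61, against 0.0939, 0.0523, 0.00347 and 3.15% of all loci. No species total passed in any of the 6 comparisons, where 0% of all species did, and the log2 differences of the species ran from -0.49 to 0.30 in F1 and from -1.73 to 0.70 in F3 by limma. Over the 6 comparisons, 0, 1, 3, 1, 0 and 0 species had an unadjusted p under 0.05. The difference of the TBT effect between P4 and P5 cells passed at 0 members in F1, against 0.000986% of all loci, and 0 in F3, against 0%, with 26 and 20 at an unadjusted p under 0.05 in limma.

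In F1 P5 cells 1 of 700 members passed, against 0.0106% of all loci, with 74 at an unadjusted p under 0.05. This was MMERVK9C at chr4:108156813-108159179, outside genes, which read 1.44, 0, 0 and 0 CPM in DMSO (6 reads in all) and 1.81, 1.92, 3.71, 3.81, 5.11, 5.22 and 5.63 CPM in TBT. The groups did not overlap, and the log2 difference was 3.59 (SE 0.57, limma adjusted p = 0.035). With 6 reads in DMSO and 143 in TBT, it reached the mean needed for a test through the TBT libraries. It had no read in any F1 P4 library, and F3 P5 cells had 0.981 CPM in DMSO and 0.289 in TBT. The call was lost in each of 5 fits that left out TBT library 45-4, 45-5, 47-1, 47-3 or 47-5. It was also lost with edgeR's quasi-likelihood test on recovered reads, which called 0.00327% of all loci, while 3 and 4 members passed without DMSO library 43-4 or 48-4, against 0.0268 and 0.0763% of all. The likelihood ratio test on recovered reads called more members in this comparison, and its count is in the section on processing.

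In F3 P6 cells 1 of 344 members passed, against 0.0343% of all loci, with 32 at an unadjusted p under 0.05. It was a 66-base piece of MMERVK9C in an exon of Mex3c, an RNA-binding ubiquitin ligase gene, at chr18:73573024-73573089. It read 7.73, 6.98, 7.19 and 9.26 CPM in DMSO and 18.4, 16.5, 12.9, 16.96 and 20.5 CPM in TBT, without overlap (log2 difference 1.10, SE 0.16, limma adjusted p = 0.0060). The neighbouring piece at chr18:73572912-73573003 had means of 10.7 and 18.4 CPM (0.80, SE 0.17, limma adjusted p = 0.14). In F1 P6 cells the Mex3c piece had 10.2 and 13.1 CPM. Some marker genes separated the same F3 P6 groups. The Leydig markers summed to 40.5 to 73.2 CPM in DMSO and 29.4 to 39.1 in TBT, and Pdgfra, an interstitial cell gene, had 82.1 to 101.1 and 113.8 to 161.8 CPM, both without overlap. The peritubular and interstitial list that holds Pdgfra overlapped, at 506 to 735 and 529 to 717 CPM, as did the germline markers, at 14.4 to 267 and 17.4 to 24.6 CPM, and the Sertoli markers, at 738 to 971 and 795 to 906 CPM. Their part in the Mex3c difference was not tested. Without F3 P6 DMSO library 3, 2 members passed, a count not set against the share of all loci in that fit.

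Where no member passed, the lowest p belonged to copies with few or uneven reads. In F1 P4 cells the internal region of lowest p was MMERVK9C at chr8:75245803-75250048, with 1.76 CPM in DMSO and 5.33 in TBT (limma adjusted p = 0.61), and the LTR was RLTR9A in Inha, with 3.20 to 33.0 CPM in DMSO and 0.768 to 10.2 in TBT (-1.77, limma adjusted p = 0.58). Inha is also a Sertoli cell marker, and the summed Sertoli markers were 25.3 and 19.08 CPM in those groups. The Leydig markers moved further, at 89.1 and 15.6 CPM, with Cyp11a1, a steroidogenic enzyme gene, at 67.7 and 10.1 CPM. Peritubular and interstitial markers had 29.7 and 21.1 CPM and endothelial and blood markers 20.02 and 32.99 CPM. The part of other cells in the Inha difference was not tested. In F1 P6 cells MMERVK9C at chr17:32551915-32553828, just after the Cyp4f16 RLTR9E copy, had 0.0573 and 3.00 CPM (limma adjusted p = 0.999). In F3 P4 cells RLTR9A2 in Lyzl4 had 23.0 and 3.13 CPM, and in F3 P5 cells MMERVK9C at chr3:15057922-15060398 had 9.20 and 0.385 CPM.

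MBD capture of P6 DNA was counted in windows of 100 bases, of which 282 in F1 and 279 in F3 overlapped a member by at least 50 bases. From 0 to 2 CpG sites in the window the counts rose, with a median of 3.72, 6.22 and 11.98 CPM for 0, 1 and 2 sites in internal regions and 3.31, 5.68 and 9.21 CPM in LTRs in F1, and 2.51, 6.09 and 12.6 and 2.96, 7.67 and 8.33 CPM in F3. Windows with 3 or with 4 or more sites were few (3 and 2 in LTRs and 5 and 3 in internal regions in F1), and in F1 LTRs their medians were lower again, at 5.77 and 8.04 CPM, against 16.3 and 23.2 CPM in internal regions. In F3 they were 14.5 and 20.3 CPM in LTRs and 20.4 and 28.7 CPM in internal regions. Windows in other LTRs had medians of 3.13, 5.56 and 9.23 CPM in F1. With edgeR's quasi-likelihood test, 0 of 63 tested windows differed between TBT and DMSO in F1, where 0.0318% of all windows did, and 0 of 107 in F3, where 0% did, with 3 and 2 at an unadjusted p under 0.05. DESeq2 called 0 in both. The window of highest count in F1, in MMERVK9C at chr7:20967701-20967800, had 36.7 ± 5.17 CPM (SD, n = 3) in DMSO and 32.01 ± 5.97 (n = 4) in TBT, and the next, in MMERVK9E at chr12:21618301-21618400, had 28.9 ± 3.70 and 27.4 ± 7.09. In F3 those were MMERVK9E at chr12:18917401-18917500, with 34.997 ± 5.97 (n = 5) and 36.2 ± 10.7 CPM (n = 7), and MMERVK9C at chr9:18093001-18093100, with 31.0 ± 7.35 and 32.1 ± 11.6. These differences were smaller than the spread between libraries.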

How the data were processed

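RNA of sorted P4, P5 and P6 cells (62 libraries, cDNA primed with oligo(dT)) and MBD-captured P6 DNA (19 libraries) were grouped by their labels. For RNA, the authors deposited a signal in CPM after TMM scaling with edgeR at RepeatMasker LTR loci of mm10, from reads trimmed with Trim Galore, aligned with STAR and counted with a modified ERVmap. Versions, strand and the handling of reads matching several places were not given in the sources used here. The deposited MBD values were raw counts in 100-base windows beside the number of CpG sites, with the aligner not given in the sources used here. MBD libraries totalled 701493 to 1913353 counts in F1 and 1105120 to 1556376 in F3.

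Each RNA value was a whole multiple of the value of 1 read (1 unit) in 100% of cases, at a tolerance of 0.01, so whole reads were recovered. Members, lists and tests were chosen with earlier results of these data known. Loci averaging 5 units or more were tested as log2(value + 1 unit) by limma 3.58.1 with a trended variance, and p-values were adjusted over all loci (Benjamini-Hochberg, 0.05). Species totals were treated likewise over all species. Fold changes are on that scale, which understates those of low loci. For MBD windows, edgeR 4.0.16 (quasi-likelihood, TMM) was used. The scripts were tested on simulated data. The 4 RNA tables, germline and somatic in each generation, were normalized separately, so tests stayed within a table. Among the 137 pairs of RNA libraries within a group, at most 5.04% of loci with 20 or more reads in the pair had equal reads. Pairs across groups and MBD libraries were not compared.

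Members overlapping a gene of the GRCm38 annotation count as inside it. Named loci were, per generation and population, the 2 internal regions and 2 LTRs of highest mean inside and outside genes, members past the threshold between TBT and DMSO or else those of lowest p, and per comparison of P5 with P4 DMSO cells the 3 higher and 3 lower without overlap and of largest change. For MBD they were the 2 windows of highest count. The text leaves some of these out, and the joins on chromosomes 9 and 11 are outside that rule and were chosen after their values were seen, for their LTRs.

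P4 and P5 libraries share replicate numbers. Deviations from group means correlated at 0.101 to 0.272 in each of 4 same-numbered F3 DMSO pairs, and the own number was the best match in 3. These numbers were taken as pairs, from the data and not from the labels, which such weak correlations do not establish. Other settings were other pseudocounts (0.25 and 4 units), a stricter filter (20 units) or none, library totals or median ratios as scaling, both edgeR tests on recovered reads, DESeq2 1.42.0 for MBD, a replicate block, the leading label number as random effect, and leaving out libraries. A floor for a count of 0 is 3 reads over the group and covers counting error only.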

Additional observations from a re-analysis of the deposited data

Results flagged for a closer look

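Among 48 groups of 4 or more libraries whose summed values were screened for a library far from the rest, 1 was found. The MMERVK9 internal regions together had 1704 CPM in F1 P5 DMSO library 48-4, against 1842 CPM in the nearest of the other libraries of its group of 4, a gap of 0.836 of the group's range where 0.829 is the limit. Chance passes that limit in about 1 in 20 groups.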

How the results depend on the processing

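Totals over loci outside genes were fitted with the deposited scaling only. In those fits the P5 over P4 difference of both MMERVK9 species passed in all 4 comparisons. Other scalings, blocks and left-out libraries were not applied to them. Locus counts moved with the filter and the test. The counts in this section stand without the share of all loci or species called in the same fit. They describe the settings and are no result about the members. With edgeR's likelihood ratio test on recovered reads, TBT against DMSO called 1 member in F1 P4, 16 in F1 P5, 3 in F1 P6, 61 in F3 P5 and 2 in F3 P6 cells, and P5 against P4 called 35 in F3 DMSO and 76 in F3 TBT. The exposure by population term called 3 in F1. In the 4 TBT comparisons with shares given above, this test called a larger share of all loci than limma did. With its quasi-likelihood test F1 P5 cells had 0 and P5 against P4 in F3 TBT had 56. Without a filter more loci were tested, and the counts were 28 in F1 P5, 1 in F1 P6 and 2 in F3 P6 cells for TBT. For P5 against P4 they were 319 in F1 TBT and 10 in F3 DMSO. At a mean of at least 20 units fewer loci were tested, and the counts were 0 in F1 P5 cells for TBT and 36 in F1 DMSO and 55 in F1 TBT for P5 against P4. A pseudocount of 0.25 units gave 0 in F1 P5 cells, and one of 4 units gave 5 for P5 against P4 in F3 DMSO. In that comparison the same total in each library gave 3 and median-ratio scaling 2. For species totals of P5 against P4, loci outside genes gave 9 in F1 DMSO, 13 in F1 TBT, 2 in F3 DMSO and 2 in F3 TBT, the same total gave 9 in F1 TBT, and median-ratio scaling gave 2 in F3 DMSO. The cause of these changes was not tested.

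The ranges in this paragraph also stand without the shares of all loci called in the same fits. Leaving out each library in turn, counts for TBT against DMSO ran from 0 to 4 in F1 P5 cells (4 without DMSO library 48-4), from 0 to 1 in F1 P6 cells (1 without TBT library 11) and from 1 to 2 in F3 P6 cells. For P5 against P4 they ran from 30 to 68 in F1 DMSO (30 without P5 library 43-5), from 140 to 177 in F1 TBT, from 0 to 17 in F3 DMSO (17 without P5 library 3) and from 0 to 12 in F3 TBT. Species totals ran from 2 to 5 in F1 DMSO (2 without library 43-5 of P4 or P5, or 44-1 of P5) and from 0 to 1 in F3 DMSO (1 without P5 library 2). MBD windows stayed at 0 under each alternative and with each library left out.

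With the replicate number as a block, P5 against P4 called 83 members in F1 DMSO, 211 in F1 TBT, 9 in F3 DMSO and 0 in F3 TBT, and 5, 9, 1 and 0 species totals, and the exposure by population term called 0 in each generation. These counts too stand without the shares of all loci and species called under the block. Same-numbered libraries correlated at -0.01 to 0.13 in F1 DMSO, where 2 of 4 pairs were each other's best, at 0.02 to 0.27 in F1 TBT (4 of 7) and at -0.09 to 0.47 in F3 TBT (1 of 5). No paired analysis was possible for TBT against DMSO or for MBD because the exposure groups share no replicate numbers.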
